A study of Mus musculus with 11 samples.

Results

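Lung mesenchymal cells of mice that had undergone pneumonectomy (PNX), an operation that removes part of the lung, were compared with those of sham-operated mice, over the libraries of day 7 and day 14 in 1 fit, to describe the differences that ran in the same direction at both days. All 11 of the 11 libraries of the series entered: 6 after PNX (3 at day 7 and 3 at day 14) and 5 after sham surgery (3 at day 7 and 2 at day 14). By their labels all groups came from the lungs of C57BL6 mice, and surgery and day are the differences the labels give; the sex of the mice is not among them. The cells were sorted by flow cytometry as lacking EpCAM, CD45 and CD31, so the sort kept no single cell type, only what carried none of those proteins. The tissue removed, the age of the mice, and whether replicates were separate or pooled animals are not given in the sources used here, so the p-values below refer to variation between libraries, part of which may be technical. RNA of the sorted cells was sequenced in bulk, and in such samples fewer cells of a type cannot be told apart from less RNA of that type in each cell.

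When part of a mouse lung is removed, the remaining lobes grow and form new alveoli. Fibroblasts of the alveolar wall lie beside the alveolar epithelium and supply it with growth factors, Wnt ligands and extracellular matrix. After injury or stretch some of them take on an activated state, in which they make matrix proteins and lose part of their resting gene expression.

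Total counts ran from 2539628 to 9008592 reads a library. Mesenchymal transcripts were abundant in every library, with Col1a1 at 493 to 5436 CPM (counts per 1e+06 of the library's total), while the gate genes stood at 0.478 to 15.8 (Epcam), 6.41 to 46.5 (Ptprc, which encodes CD45) and 9.69 to 269 CPM (Pecam1, which encodes CD31). Of the other markers fixed for the sorted cells, Col1a2 stood at 1049 to 4610, Pdgfra at 182 to 1085 and Pdgfrb at 31.9 to 146 CPM. In that order, their log2 fold changes at day 7 and day 14 were 0.51 and 0.99, -1.09 and -0.64, and -0.99 and 0.91. None of them passed the threshold given below. Some transcripts of other cell types were far higher than the gate genes. The epithelial marker Sftpc made up from 0.0019% (sham day 7 replicate 3) to 1.34% of counts (PNX day 14 replicate 1, where Col1a1 stood at 1984 CPM). Erythroid markers summed to 2778 to 27640 CPM in sham and 255 to 64830 CPM in PNX. Summed levels of marker lists for 8 cell types and for mesothelium, the olfactory receptor background, depth, genes detected and a GC trend, 13 measures in all, gave no difference between PNX and sham past 0.05. The lowest p of the 13 was 0.085, for mesenchymal markers (adjusted over the 13, 0.926; 2-sided exact permutation test within day, 200 arrangements, smallest possible p 0.005). Sham day 14 replicate 1 had the smallest total and the highest olfactory receptor background, 1635 CPM, against 91.6 to 1214 CPM in the other libraries. Its summed mesenchymal markers were the lowest, 12470 CPM against 18150 to 25990 CPM, and its summed epithelial markers the highest, 17150 CPM. The fold changes of day 14 rest in part on that library. The Y-linked genes Ddx3y, Uty, Kdm5d and Eif2s3y summed to 0 counts in 4 libraries (sham day 7 replicate 3, the first sham library of day 14, and PNX day 14 replicates 2 and 3) and to 1026 to 3903 counts in the other 7. Their presence, and with it that of male cells, was thus spread unevenly over groups and days. With that presence as a covariate all 18 genes described below kept their calls, with 15 genes higher and 7 lower in all. Haematopoietic markers summed to 3558 and 3110 CPM in the pair of day 14 sham libraries, and to 185 to 2145 CPM in the other 9.

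12 genes rose and 6 fell after PNX across both days. Among the genes that rose were Cthrc1 and Adam12 of activated fibroblasts, Calca, Cela1, Dmkn, Anxa8, Krt18, Npl, Mpp6, the connexin gene Gjb5, and 6820408C15Rik, named only by its clone. The genes that fell were Slc7a10, Fgfr4, Colq, Klf15, Bcl2l1 and the connexin gene Gja5. The test was edgeR's quasi-likelihood F test with day as an additive term over 16011 genes, with Benjamini-Hochberg adjustment over all of them and a threshold of 0.05. The genes that rose were 0.0749% and those that fell 0.0375% of the genes tested, and at an unadjusted p under 0.05 there were 564 higher (3.52%; 3.47% with the same sign at both days) and 1018 lower (6.36%; 6.1% with the same sign). The same sign at both days was a condition of a call. All 18 also had an unadjusted p under 0.05 at each day in a fit of the 4 groups. This was met, with the same sign, by 68 genes as higher (0.425%) and 79 as lower (0.493%). These counts, and those of overlap below, come from the libraries that selected the 18 genes, so they only describe the calls. In 17 of the 18 (94.4%) the PNX and sham libraries did not overlap within either day. This held for 180 genes as higher (1.12%) and 177 as lower (1.11%) over all genes, beside 181 in opposite directions (1.13%). In 16 of the 18 (88.9%) the 6 PNX libraries lay apart from all 5 sham libraries, which held for 102 genes as higher (0.637%) and 71 as lower (0.443%). Of the 18, only Cthrc1 and Adam12 (0.0125% of genes tested) also passed at day 7 alone, where 6 genes did (0.0375%), and none was the gene that passed at day 14 alone (0.00625%).

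The number of genes past the threshold depended on single libraries. With sham day 7 replicate 1 left out 21 genes rose and 44 fell, and with sham day 14 replicate 1 left out 35 rose and 119 fell. With sham day 14 replicate 2 left out, 1 rose and 1 fell. Leaving out sham day 7 replicate 2 gave 6 and 3, and leaving out either PNX day 14 replicate 2 or replicate 3 gave 6 and 2. The count that fell was 14 when PNX day 14 replicate 1 was left out, 3 for either sham day 7 replicate 3 or PNX day 7 replicate 2, and 2 for PNX day 7 replicate 3, with 8 to 18 genes that rose. DESeq2 called 113 genes higher and 180 lower, all 18 reported genes among them.

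**Figure D1:**
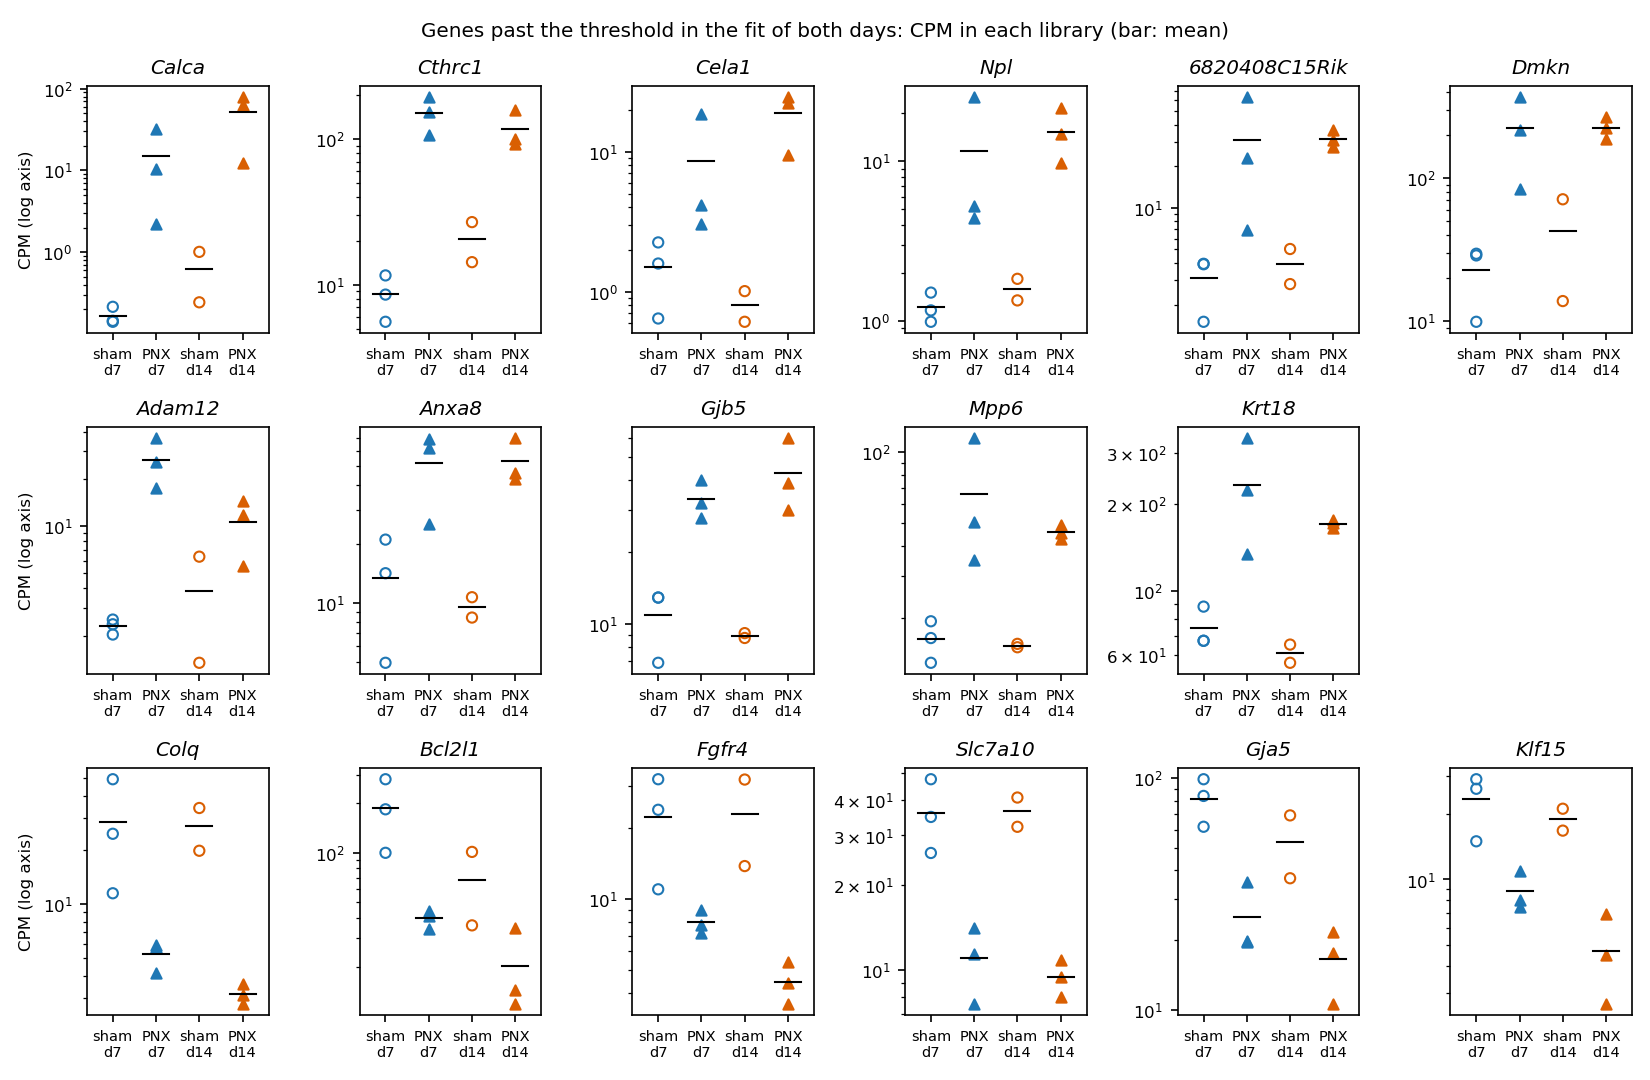
Level of 17 of the 18 genes past the threshold in every library, in CPM scaled by TMM factors on log axes, by group (open circles sham, filled triangles PNX, blue day 7, orange day 14; bars are group means). Within each day PNX lies above sham in the 2 upper rows and below it in the lower row, except for Adam12. That gene overlaps at day 14, where 1 sham library stands at 6.38 CPM and 1 PNX library at 5.60 CPM. Across days Bcl2l1 overlaps too, with sham day 14 replicate 1 at 35.9 CPM and PNX day 7 replicates 1 and 2 at 41.1 and 44.0 CPM.

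Cthrc1 encodes a secreted protein made by matrix-producing fibroblasts. It stood at 8.57, 5.58 and 11.6 CPM in the sham and 106, 193 and 152 CPM in the PNX libraries of day 7, and at 26.9 and 14.3 CPM in the sham and 91.8, 159 and 100 CPM in the PNX libraries of day 14 (CPM of single genes are scaled by TMM factors). Every PNX library lay above every sham library, and the lowest PNX value was over 3 times the highest sham value. Cthrc1 rose by 3.39 ± 0.37 (SE) on the log2 scale (adjusted p = 0.00107, n = 11), 4.11 ± 0.42 at day 7 and 2.53 ± 0.46 at day 14. The difference between those days had an unadjusted p of 0.0110 and an adjusted p of 0.418. Cthrc1 lies on chromosome 15 (39076932 to 39087121, mm10).

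Adam12 encodes a membrane-anchored metalloprotease of the disintegrin family. Its levels were 2.53, 2.36 and 2.03 CPM in sham and 17.5, 25.5 and 36.4 CPM in PNX at day 7, and 6.38 and 1.34 CPM in sham and 5.60, 11.8 and 14.4 CPM in PNX at day 14. The groups were apart at day 7 and overlapped at day 14. The log2 fold change was 2.67 ± 0.48 (adjusted p = 0.0331), 3.51 ± 0.55 at day 7 and 1.58 ± 0.62 at day 14, and the difference between days had an unadjusted p of 0.0258 (adjusted 0.507). Adam12 lies on chromosome 7 (133883199 to 134232146) and shares its strand with the noncoding A130023I24Rik and with Gm19514, so some of its reads may have been counted for those.

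The list of activated fibroblast genes held 20 genes, all tested. 15 were higher at both days (75%, against 21.7% of all genes tested), 5 had opposite signs and 0 were lower at both. 2 passed the threshold, Cthrc1 and Adam12, and 12 were higher at an unadjusted p under 0.05, as were 3.52% of all genes tested. The median log2 fold change was 1.02, with 0.96 at day 7 and 0.86 at day 14, against -0.03 for all genes tested. Timp1, an inhibitor of matrix metalloproteinases, stood at 63.2 to 82.8 CPM in sham and 387 to 430 CPM in PNX at day 7, and at 120 and 130 CPM in sham and 144 to 241 CPM in PNX at day 14. All 6 PNX libraries lay above all 5 sham libraries, but Timp1 did not pass (log2 fold change 1.60 ± 0.33, adjusted p = 0.0801). Spp1, the gene of the secreted matrix protein osteopontin, named after its values were seen, had the highest fold change of the list (3.68 ± 0.74, adjusted p = 0.108) and groups that did not overlap.

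Alveolar fibroblast genes showed the opposite pattern. Of 17 tested, 14 were lower at both days (82.4%, against 24.8% of all genes tested), 1 was higher at both and 2 had opposite signs. Slc7a10 and Fgfr4 fell past the threshold and 10 had an unadjusted p under 0.05 as lower, as had 6.36% of all genes tested. The median log2 fold change was -0.85, with -0.87 at day 7 and -0.64 at day 14. Both fibroblast lists were chosen with earlier results of these data known, so their counts are a description.

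Slc7a10 encodes a transporter of small neutral amino acids. It stood at 26.0, 47.5 and 34.9 CPM in sham and 14.1, 11.4 and 7.58 CPM in PNX at day 7, and at 32.2 and 40.9 CPM in sham and 8.02, 10.8 and 9.44 CPM in PNX at day 14. The 6 PNX libraries all lay below the lowest sham library, and the groups of the same surgery covered similar ranges at both days. Slc7a10 fell by 1.82 ± 0.25 on the log2 scale (adjusted p = 0.00693), with changes of -1.72 ± 0.35 at day 7 and -1.95 ± 0.38 at day 14. It lies on chromosome 7 (35186385 to 35201114) and overlaps Lrp3 on the opposite strand. Whether the authors' counting used strand is not given in the sources used here, so a read in an overlap may belong to either gene.

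Fgfr4 encodes a receptor for fibroblast growth factors. Its levels were 11, 32.2 and 23.9 CPM in sham and 9.01, 7.75 and 7.2 CPM in PNX at day 7, and 13.8 and 32.1 CPM in sham and 5.41, 4.39 and 3.6 CPM in PNX at day 14. The gap was narrow at day 7, where the lowest sham library stood at 11 and the highest PNX library at 9.01 CPM. Fgfr4 fell by 1.87 ± 0.33 on the log2 scale (adjusted p = 0.0331). Tcf21, a transcription factor gene of lung fibroblasts, ranged from 16.7 to 33.7 CPM in sham and from 8.09 to 15.7 CPM in PNX and did not pass (log2 fold change -1.23 ± 0.26, adjusted p = 0.0803). Wnt2, a ligand gene of the alveolar niche, also had groups that did not overlap (46.4 to 88.1 CPM in sham, 16.2 to 39.0 CPM in PNX) without passing (-0.95 ± 0.26, adjusted p = 0.177).

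**Figure D2:**
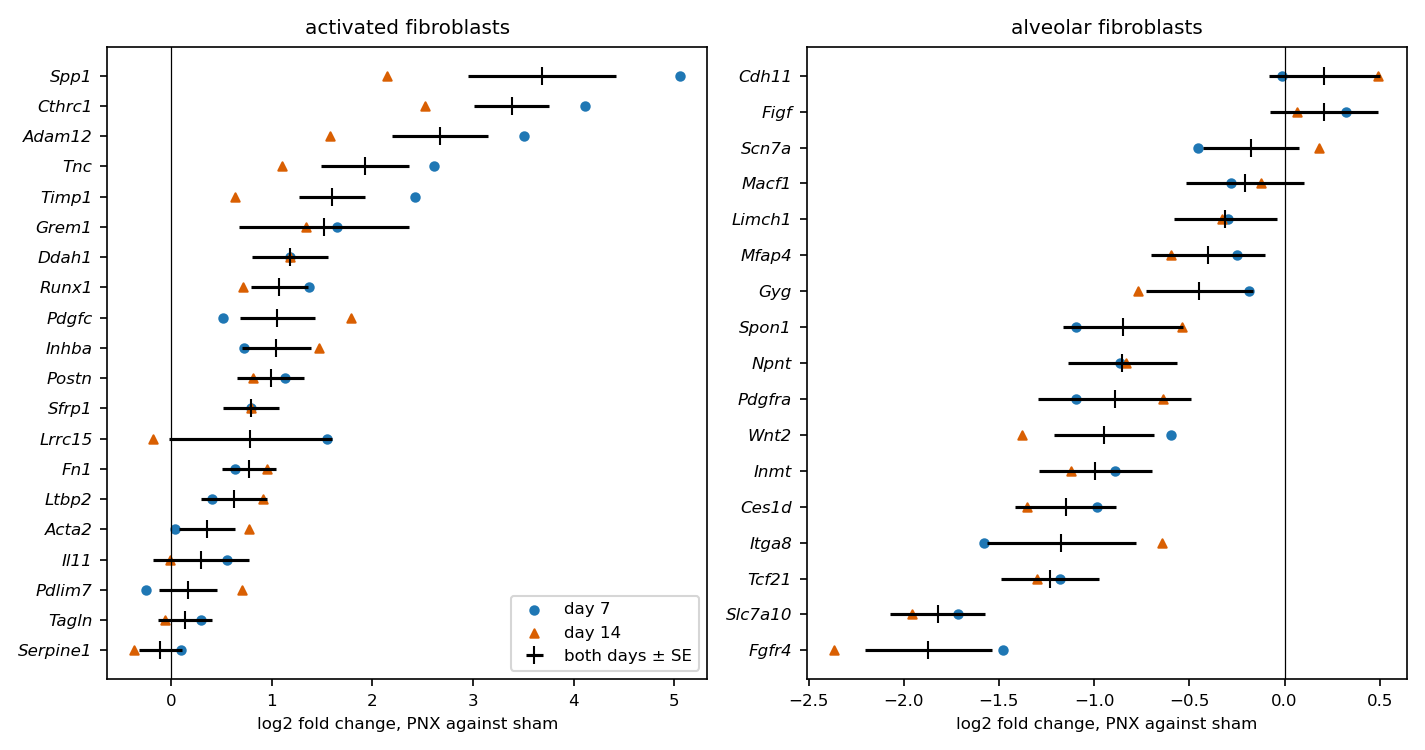
Log2 fold change of PNX against sham for each tested member of the activated fibroblast list (left) and the alveolar fibroblast list (right), at day 7 (circles), at day 14 (triangles) and in the fit of both days (bar ± SE). Of the left list 15 of 20 lie above 0 at both days, and of the right list 14 of 17 lie below 0 at both.

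Calca, the gene of calcitonin and of the calcitonin gene-related peptide, had the largest fold change among the 18 genes. Sham libraries held 8 Calca reads in all: 1 in each of the 3 libraries of day 7, and 3 and 2 at day 14. The PNX libraries held 13, 38 and 253 reads at day 7 and 66, 501 and 282 at day 14. In CPM this was 0.141 to 0.215 in sham and 2.21, 10.5 and 32.5 in PNX at day 7, and 1.01 and 0.244 in sham and 12.3, 78.6 and 63.4 in PNX at day 14. All PNX libraries were above all sham libraries, and the PNX libraries varied widely within each day. The log2 fold change was 6.53 ± 0.87 (adjusted p = 0.0102), 6.38 at day 7 and 6.66 at day 14. Since the sham counts were so low, the ratio of summed reads per depth is the plainer measure: 128 (exact 95% interval 65.0 to 299) over both days, which covers counting error only. Calca is on chromosome 7 (114631478 to 114636357).

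Cela1, a serine protease gene of the elastase family, and Npl, an enzyme of sialic acid breakdown, were also low in sham. Cela1 stood at 2.25, 0.644 and 1.59 CPM in sham and 3.06, 4.15 and 18.5 CPM in PNX at day 7, and at 1.01 and 0.610 CPM in sham and 9.51, 22.3 and 24.5 CPM in PNX at day 14. Groups stayed apart, though by little at day 7, and the log2 fold change was 3.27 ± 0.60 (adjusted p = 0.0423), 2.49 at day 7 and 4.60 at day 14. Npl ranged from 0.984 to 1.83 CPM in sham and from 4.43 to 25.2 CPM in PNX (3.25 ± 0.49, adjusted p = 0.0102). The gene 6820408C15Rik ranged from 1.5 to 5.04 CPM in sham and from 6.92 to 63.1 CPM in PNX (3.19 ± 0.47, adjusted p = 0.0102). In Calca, Cela1, Npl and 6820408C15Rik, PNX day 7 replicate 3 stood highest of its group. The same held in Adam12, Dmkn, Anxa8, Gjb5 and Mpp6, but not in Cthrc1 or Krt18.

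Dmkn, Anxa8 and Krt18 are genes known mainly from epithelia, and Krt18 was also in the list of mesothelial genes. Dmkn encodes dermokine, a secreted protein of the epidermis. It stood at 28.8, 9.88 and 29.6 CPM in sham and 218, 84.2 and 369 CPM in PNX at day 7, and at 71.2 and 13.8 CPM in sham and 188, 267 and 224 CPM in PNX at day 14. The highest sham library, 71.2 CPM, was below the lowest PNX library, 84.2 CPM. Dmkn rose by 2.90 ± 0.48 on the log2 scale (adjusted p = 0.0262). Anxa8, an annexin that binds phospholipids in the presence of calcium, ranged from 4.94 to 21.1 CPM in sham and from 25.5 to 69.7 CPM in PNX (2.18 ± 0.36, adjusted p = 0.0181). It overlaps A630023A22Rik on the opposite strand. Krt18 encodes a keratin of simple epithelia that pairs with the product of Krt8. It stood at 67.2, 67.2 and 88.2 CPM in sham and 337, 134 and 224 CPM in PNX at day 7, and at 65.2 and 56.4 CPM in sham and 176, 171 and 165 CPM in PNX at day 14 (1.58 ± 0.26, adjusted p = 0.0156). Its partner Krt8 ranged from 27.1 to 53.6 CPM in sham and from 49.7 to 167 CPM in PNX and did not pass (1.29 ± 0.28, adjusted p = 0.104).

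Epithelial and mesothelial markers were examined beside those genes. For comparison, 21.7% of all genes tested were higher and 24.8% lower at both days. Of 18 epithelial markers tested, 0 were higher at both days, 9 were lower at both and 9 had opposite signs (median log2 fold change -0.80), and their summed level was 99.6 to 17150 CPM in sham and 707 to 16300 CPM in PNX. Of 13 mesothelial genes, Krt18 and Krt8 included, 6 were higher at both days, 0 lower at both and 7 had opposite signs (median 0.42, with 0.09 at day 7 and 0.92 at day 14). Their summed level was 1105 to 3887 CPM in sham and 1839 to 4371 CPM in PNX. Wt1, a transcription factor gene of mesothelium, had a log2 fold change of 0.11 at day 7 and 3.85 at day 14. With the summed epithelial markers as a covariate, a setting chosen after seeing the data, all 18 genes kept their calls. That sum followed Sftpc above all where it was high: in PNX day 14 replicate 1 Sftpc stood at 13390 CPM and the sum at 16300 CPM. The covariate therefore cannot speak for other epithelial transcripts. No covariate for mesothelial markers was run. The part of epithelial or mesothelial cells in the changes of Dmkn, Anxa8 and Krt18 was not tested.

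Upstream sequence was at hand in RefSeq (GRCm38.p6) for 14 of the 18 genes, in 19 windows of 300 bases, from 250 before to 50 after a start site. Of 3 motifs searched on both strands, the AP-1 motif TGANTCA lay in windows of 1 gene, Dmkn, in all 3 of its windows, and in 7.81% of the 32841 RefSeq windows. The TEAD motif GGAATG lay in a window each of Bcl2l1 and Fgfr4, and in 14.7% of all. The glucocorticoid receptor motif, a palindrome with free bases in its middle, lay in none of the 19, and in 0.475% of all. Both start regions of Dmkn are shown because each holds the AP-1 letters, which are in capitals. The motif begins 89 bases before the first start site and 82 before the downstream one. Each sequence is the 250 bases before its start, on the plus strand.
Dmkn, chr7:30763506-30763755: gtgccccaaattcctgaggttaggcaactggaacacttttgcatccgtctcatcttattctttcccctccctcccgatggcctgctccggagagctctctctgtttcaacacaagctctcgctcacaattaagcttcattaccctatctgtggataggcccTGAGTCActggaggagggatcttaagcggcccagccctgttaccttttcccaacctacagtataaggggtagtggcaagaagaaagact
Dmkn, chr7:30776155-30776404: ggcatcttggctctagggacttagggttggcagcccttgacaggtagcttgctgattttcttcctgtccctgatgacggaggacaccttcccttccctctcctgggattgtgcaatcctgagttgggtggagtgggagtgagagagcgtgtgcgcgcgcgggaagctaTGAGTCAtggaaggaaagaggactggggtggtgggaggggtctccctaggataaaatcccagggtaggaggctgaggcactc
In both regions the letters found are TGAGTCA. The table gives counts for the gene as a whole, so which start was used was not measured.

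Connexins form gap junctions, channels through which neighbouring cells exchange ions and small molecules. Gjb5 encodes a connexin and stood at 12.9, 6.87 and 12.9 CPM in sham and 32.1, 27.7 and 40.3 CPM in PNX at day 7, and at 8.73 and 9.15 CPM in sham and 30, 60.1 and 38.9 CPM in PNX at day 14. The lowest PNX library was over 2 times the highest sham library, and the log2 fold change was 1.89 ± 0.28 (adjusted p = 0.0102), 1.61 at day 7 and 2.26 at day 14.

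Gja5 moved the other way. It encodes a connexin of arterial endothelium and the heart. It stood at 61.8, 99.2 and 84.0 CPM in sham and 35.7, 19.7 and 19.9 CPM in PNX at day 7, and at 37.0 and 69.2 CPM in sham and 21.6, 17.6 and 10.6 CPM in PNX at day 14. The groups came close, at 37.0 and 35.7 CPM, only across the days. Gja5 fell by 1.69 ± 0.27 on the log2 scale (adjusted p = 0.0151), with changes of -1.70 at day 7 and -1.68 at day 14. Of 20 endothelial markers, 9 were higher and 0 lower at both days (median 0.40), against 21.7% and 24.8% of all genes tested. Their summed level was 396 to 1592 CPM in sham and 328 to 2393 CPM in PNX. Gja5 lies on chromosome 3 (96904693 to 97077416), and its span overlaps Gpr89 on the opposite strand. Mpp6, which encodes a scaffold protein of the membrane-associated guanylate kinase family, rose from between 12.9 and 19.3 CPM in sham to between 34.9 and 114 CPM in PNX (1.84 ± 0.29, adjusted p = 0.0151). It overlaps Gsdme on the opposite strand.

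Colq encodes a collagen-like tail that anchors acetylcholinesterase in the extracellular matrix. It stood at 11.5, 49.4 and 24.6 CPM in sham and 5.95, 4.15 and 5.78 CPM in PNX at day 7, and at 19.8 and 34.2 CPM in sham and 2.80, 3.14 and 3.6 CPM in PNX at day 14. The sham libraries varied widely and the PNX libraries little, with no overlap. Colq fell by 2.71 ± 0.35 on the log2 scale (adjusted p = 0.00509), with changes of -2.41 ± 0.47 at day 7 and -3.09 ± 0.52 at day 14. It is on chromosome 14 (31523082 to 31591343), where the protein-coding Gm49387 overlaps it on the same strand.

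Bcl2l1 encodes Bcl-x, a regulator of cell death known best for its form that protects cells. It stood at 99.7, 184 and 281 CPM in sham and 41.1, 44.0 and 34.3 CPM in PNX at day 7, and at 35.9 and 101 CPM in sham and 34.5, 14.4 and 11.9 CPM in PNX at day 14. Within each day the groups were apart, by little at day 14, but the lower sham library of day 14 fell among the PNX values of day 7. Bcl2l1 fell by 2.04 ± 0.35 on the log2 scale (adjusted p = 0.0276).

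Klf15 encodes a Krüppel-like transcription factor that glucocorticoids induce in many tissues. It stood at 15, 29 and 26.2 CPM in sham and 7.48, 8.03 and 10.9 CPM in PNX at day 7, and at 16.8 and 21.2 CPM in sham and 6.90, 2.67 and 4.50 CPM in PNX at day 14. All PNX libraries lay below all sham libraries, and Klf15 fell by 1.67 ± 0.30 on the log2 scale (adjusted p = 0.0346). In a list of 19 other glucocorticoid-induced genes none passed; 10 were lower at both days (52.6%, against 24.8% of all genes), 0 were higher at both and 9 had opposite signs, with a median of -0.33. The lowest p of that list belonged to Cebpd, a transcription factor gene, which ranged from 248 to 674 CPM in sham and from 82.2 to 218 CPM in PNX (-1.33 ± 0.30, adjusted p = 0.108). Below the 6 genes that fell, the next in order of p were the chemokine gene Cxcl14 (441 to 836 CPM in sham, 221 to 293 CPM in PNX, -1.22 ± 0.24, adjusted p = 0.0709) and Tmem109, a membrane protein gene (76.6 to 246 and 45.4 to 84.0 CPM, -1.19 ± 0.24, adjusted p = 0.0801), neither past the threshold. That order leaves out genes of low level and clone names.

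Other programmes held few or no genes past the threshold. Of 40 collagen and matrix genes, 20 were higher and 2 lower at both days (50% and 5%, against 21.7% and 24.8% of all genes tested). None passed, and 11 were higher at an unadjusted p under 0.05, as were 3.52% of all genes tested. The median was 0.37, with 0.01 at day 7 and 0.82 at day 14. Tnc, which encodes tenascin C, ranged from 16.7 to 42.5 CPM in sham and from 52.6 to 325 CPM in PNX (1.93 ± 0.44, adjusted p = 0.119). Sparc, a matrix glycoprotein gene, ranged from 2420 to 4150 CPM in sham and from 5340 to 8370 CPM in PNX (1.09 ± 0.27, adjusted p = 0.141). Col12a1, a gene of a collagen that binds to fibrils, ranged from 20.2 to 32.5 CPM in sham and from 33.3 to 62.6 CPM in PNX (0.81 ± 0.23, adjusted p = 0.202). In these 3 the groups did not overlap, with all PNX libraries above all sham libraries, which held for 0.637% of all genes tested. Col1a1 had opposite signs at day 7 (-0.76) and day 14 (1.19).

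No gene of the signalling lists passed the threshold. Over all genes tested, 21.7% were higher and 24.8% lower at both days, beside which the counts below stand. The Wnt list held targets and secreted inhibitors, and of its 18 genes 11 were lower and 2 higher at both days (median -0.48). Those 2 were the inhibitor genes Sfrp1 and Sfrp2. Of 12 hedgehog pathway genes 7 were lower and 1 higher (median -0.47). Of 31 TGF-beta and BMP genes 9 were higher and 4 lower (median -0.02), of 28 epithelial niche ligands 10 and 7 (median 0.09), and of 21 YAP pathway genes 5 and 8 (median -0.15). Foxl1 and Ptch1 of the hedgehog list had log2 fold changes of -2.02 and -2.10 at day 7 and of -0.78 and -0.004 at day 14, so Ptch1 shared only its sign between days. Gli3, a transcription factor gene of that pathway, was higher in every PNX library (38.2 to 55.1 CPM) than in any sham library (23.8 to 36.5 CPM; 0.69 ± 0.22, adjusted p = 0.260). Immediate early genes, which cells also switch on during handling, were lower at both days in 16 of 30 and higher in 1 (median -0.45). Of the 30, 11 were lower at an unadjusted p under 0.05, as were 6.36% of all genes tested. Nr4a1 ranged from 594 to 8390 CPM in sham and from 427 to 846 CPM in PNX (-1.93 ± 0.46, adjusted p = 0.126). Its log2 fold change was -2.73 at day 7 and -0.83 at day 14, where the groups overlapped. Of 19 circadian clock genes 9 were lower and 0 higher at both days (median -0.48). The hour of collection was not given in the sources used here.

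**Figure D3:**
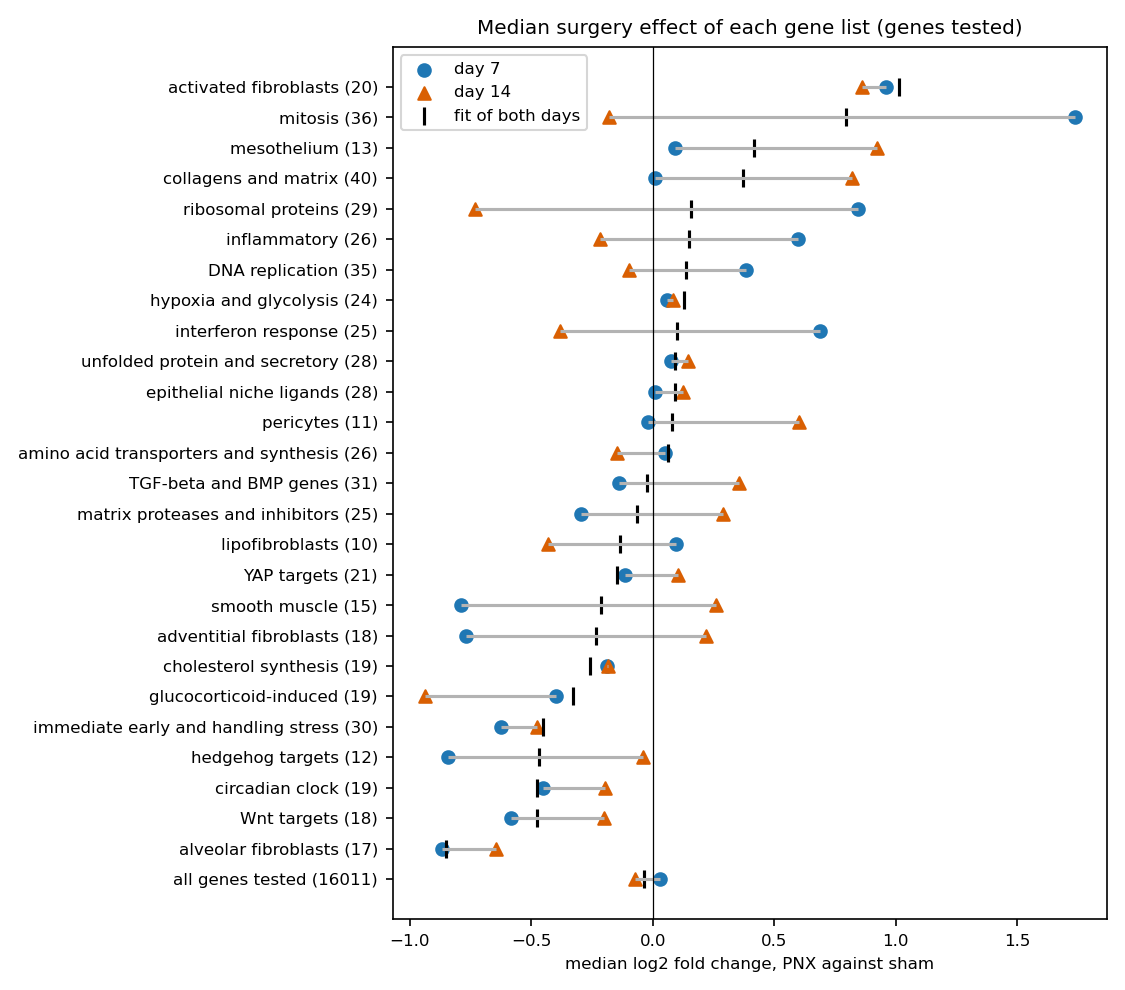
Median log2 fold change of PNX against sham over the tested genes of each of the 26 programme lists (number in brackets; marker lists of cell types are not drawn) and of all genes, at day 7 (circles), at day 14 (triangles) and in the fit of both days (vertical bars). Of these lists, activated fibroblast genes lie highest in the fit of both days (1.02) and alveolar fibroblast genes lowest (-0.85), each on the same side of 0 at both days; mitosis and ribosomal protein genes lie on opposite sides.

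Most mitosis genes had opposite signs at the 2 days. Of 36 tested, 11 were higher at both days (30.6%, against 21.7% of all genes tested) and 25 had opposite signs, with a median of 1.74 at day 7 and -0.18 at day 14. Of 35 DNA replication genes 12 were higher at both days (34.3%), 5 lower at both and 18 had opposite signs, with medians of 0.38 and -0.10. None of either list passed across both days. Ckap2, which encodes a spindle protein, had the lowest p of the mitosis list, with log2 fold changes of 2.90 at day 7 and 0.39 at day 14 (1.73 ± 0.47 across both, adjusted p = 0.172). All 29 ribosomal protein genes had opposite signs at the 2 days, with medians of 0.84 and -0.73. Haematopoietic markers were lower at both days in 12 of 25 (48%, against 24.8% of all genes tested), with opposite signs in the other 13 (median -1.09, with 0.28 at day 7 and -2.39 at day 14). Ptprc, the CD45 gene, ranged from 8.15 to 51.1 CPM in sham and from 5.26 to 16.4 CPM in PNX (-1.18 ± 0.33, adjusted p = 0.177). With the summed haematopoietic markers as a covariate, chosen after seeing the data, all 18 genes kept their calls, and 23 genes in all were higher and 9 lower.

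Across all genes the log2 fold changes of day 7 and day 14 did not run together. 46.5% of the 16011 genes had the same sign at day 7 and day 14, and the log2 fold changes of the days, which share no library, had a correlation across genes of -0.11 (Pearson) and -0.13 (Spearman). Genes are not independent replicates, so no p is given. Against the 68 and 79 genes with an unadjusted p under 0.05 at each day in the same direction stood 77 genes in opposite directions (0.481%). With the larger p of both days as the test of a gene, 0 genes passed after adjustment with edgeR (0%); no other tool was run on this test, and 1 passed without PNX day 7 replicate 1. The difference between days itself, the interaction of surgery and day, also gave 0 genes with edgeR (0%), 1402 at an unadjusted p under 0.05 (8.76%), 102 with DESeq2 and 1 with limma voom. Leaving out single libraries changed this count: 370 passed with sham day 14 replicate 2 left out, 13 for sham day 7 replicate 2, 5 for sham day 14 replicate 1, 2 for sham day 7 replicate 1 and 1 for PNX day 14 replicate 1. With either sham library of day 14 left out, that group is a single library, assumed to vary like the others, so the 370 and the 5 rest on 1 sham library at day 14; for the 370 it is the one of smallest total and highest background.

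The genes of smallest interaction p, none past the threshold, were picked for a difference between days, so their values only describe that choice. Ifi27l2a, an interferon-induced gene, had log2 fold changes of 1.43 at day 7 and -2.21 at day 14 (interaction adjusted p = 0.0724). Mki67, a marker of cycling cells, had 2.64 and -0.77, and Cfd, the complement factor D gene, 3.59 and -1.51. Map3k1, a kinase gene, went the other way with -0.71 and 2.96, as did Gas7 with -0.70 and 2.52. In the fit of both days their adjusted p was 0.643 or higher.

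**Figure D4:**
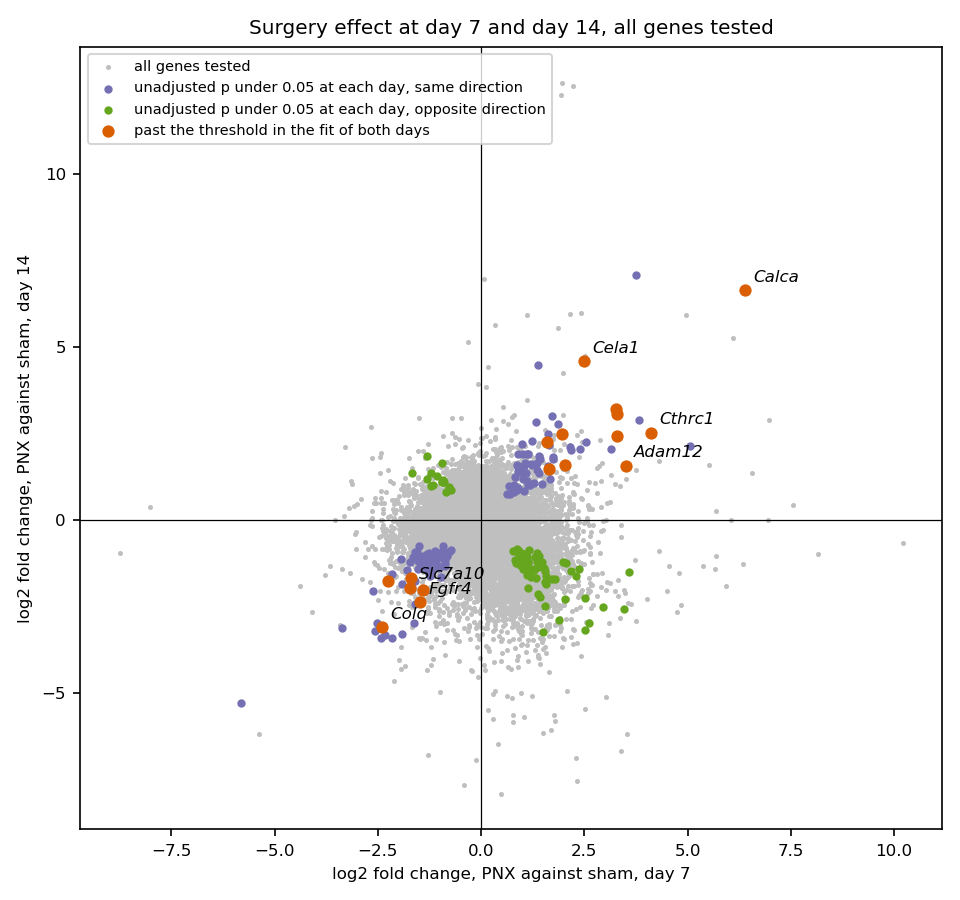
Log2 fold change of PNX against sham at day 7 (horizontal) and day 14 (vertical) for the genes tested (grey), those with an unadjusted p under 0.05 at each day in the same (violet) or opposite (green) directions, and 17 of the 18 genes past the threshold across both days (orange). A call required equal signs, so all 17 lie in those quadrants. The cloud of all genes shows no rising trend (Pearson r of -0.11).

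How far each call rested on single libraries differed between the 18 genes. Cthrc1 and Colq kept their calls whichever library was left out. Without sham day 14 replicate 2 the other 16 lost theirs, at adjusted p of 0.058 to 0.194. Without sham day 7 replicate 2 (adjusted p 0.0514 to 0.14), PNX day 14 replicate 2 (0.0621 to 0.116) or PNX day 14 replicate 3 (0.0535 to 0.111) the same 10 genes lost theirs each time: Cela1, Dmkn, Anxa8, Mpp6, Krt18, Bcl2l1, Fgfr4, Gja5, Klf15 and Adam12. Without PNX day 7 replicate 3 it was 8 genes (Cela1, Anxa8, Krt18, Bcl2l1, Fgfr4, Gja5, Klf15 and Adam12, at 0.0541 to 0.249). Without sham day 7 replicate 3 it was 7 (Calca, Cela1, Dmkn, Bcl2l1, Fgfr4, Klf15 and Adam12, at 0.0603 to 0.106). Without PNX day 7 replicate 1 Krt18, Bcl2l1 and Klf15 lost theirs (0.0749 to 0.0898), and without PNX day 7 replicate 2 Bcl2l1, Fgfr4, Klf15 and Adam12 (0.0594 to 0.0614). Cela1 lost its call without sham day 14 replicate 1 (0.0509) and Fgfr4 without PNX day 14 replicate 1 (0.0525). No gene of the 18 changed direction under any setting tried. Npl, Gjb5, Slc7a10 and 6820408C15Rik lost the call, of the libraries left out, only without sham day 14 replicate 2.

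Other settings of the analysis also ended calls. In a fit with the replicate number as a block, only Calca, Cthrc1, Dmkn, Anxa8 and 6820408C15Rik passed. The other 13 of the 18 did not (adjusted p 0.0547 to 0.295), Colq and Slc7a10 among them, though the numbers were not taken to pair the libraries. With limma voom Calca and Cela1 did not pass (adjusted p 0.208 and 0.0831). With total counts in place of TMM factors Dmkn, Fgfr4, Klf15 and Adam12 did not (0.0656 to 0.0886). A GC offset ended the calls of Cela1 and Fgfr4 (0.0731 to 0.0763), the olfactory receptor background as a covariate that of Dmkn (0.0623) and a filter of 1 CPM in 5 libraries that of Cela1 (0.0528). Without the 3 libraries of highest olfactory receptor background (replicate 2 of both groups of day 7, and replicate 1 of the day 14 sham group) Calca, Cela1, Fgfr4 and Klf15 did not pass (0.0747 to 0.138). In a test against a fold of 1.5 rather than against no change, Calca, Cthrc1, Npl, 6820408C15Rik, Colq and Slc7a10 passed and the other 12 did not (0.0655 to 0.215).

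**Figure D5:**
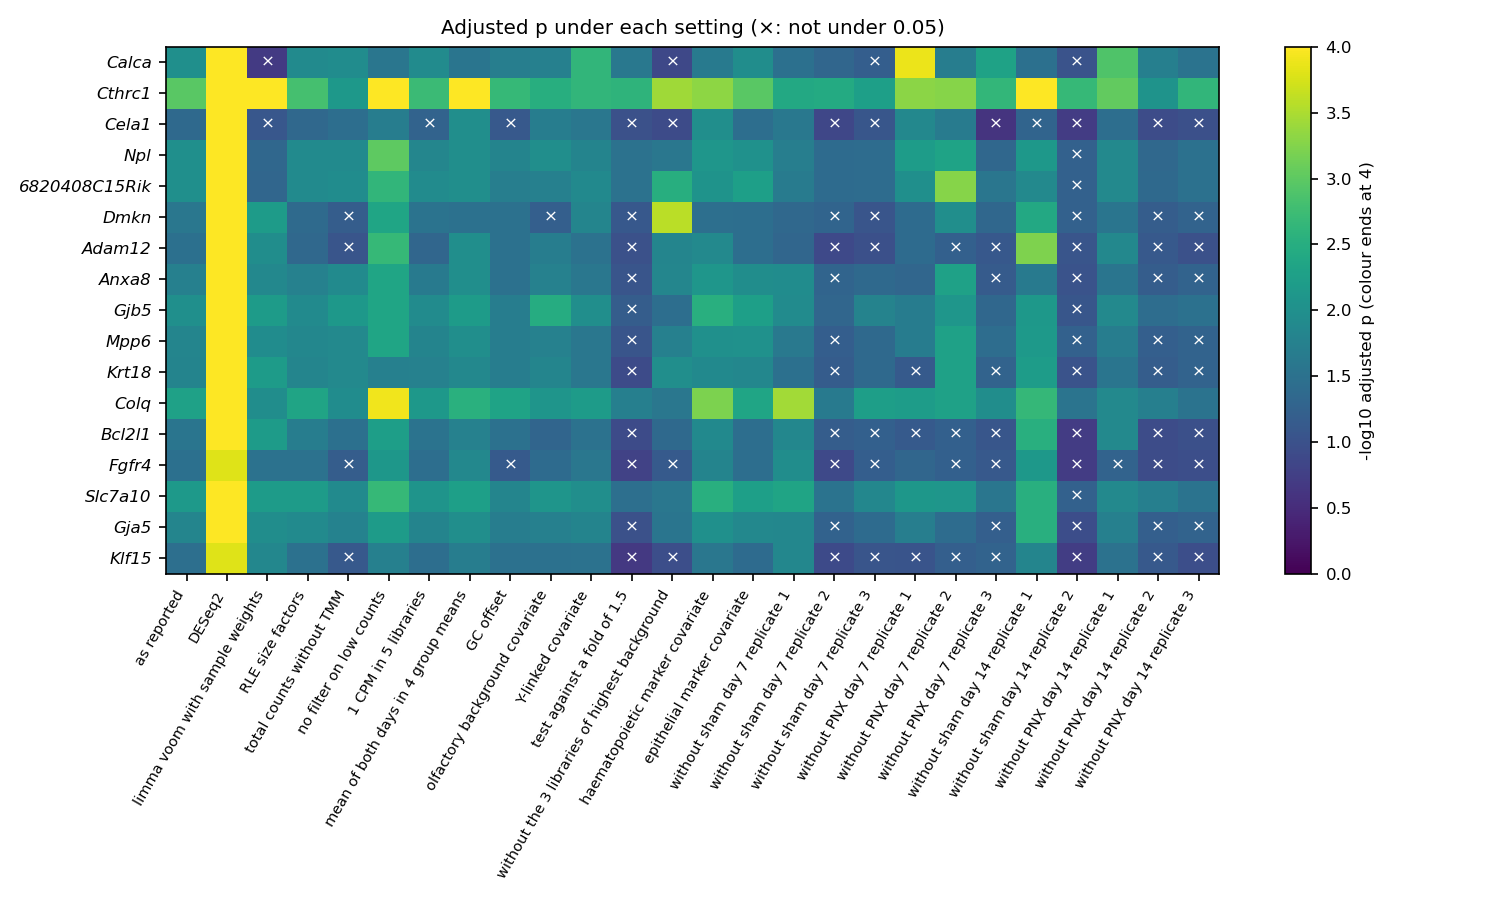
Adjusted p of 17 of the 18 genes (rows) as reported and under other settings (columns; the replicate block is left out), as -log10 in colour, with crosses where it was not under 0.05. Cthrc1 and Colq have no cross, and the column without sham day 14 replicate 2 has the most, 15. With the replicate block, which is not drawn, Cthrc1 passed and Colq did not (adjusted p 0.0619).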

How the data were processed

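Per the labels, RNA came from sorted lung cells by RNeasy Micro columns, and NEBNext reagents for low input gave the libraries. The authors deposited 1 table of raw read counts per gene symbol for the 11 libraries. The submitters' processing notes name bcl2fastq 2.20.0.422 and mm10; the aligner, counter, annotation and strand setting are not given in the sources used here.

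Groups (surgery and day) came from the labels. The analysis used edgeR 4.0.16 under R 4.3.3. Of 24411 genes, 16011 passed filterByExpr by group and 8400 did not, TMM factors were applied, and a robust quasi-likelihood fit with day and surgery as additive terms (8 residual degrees of freedom, median prior 8.9, square root of the common dispersion 0.459) tested PNX against sham. Benjamini-Hochberg adjustment ran over the whole set tested, and 0.05 was the threshold. A fit of 4 group means gave the effect at each day and the interaction, and a call also needed the same sign at both days in it. The SE is the absolute log2 fold change divided by the square root of F, with a median of 0.345. CPM of single genes are TMM-scaled, and those of marker sums, gate genes and olfactory receptor genes (vomeronasal receptors included, 1462 genes) are shares of total counts. The steps were tested on simulated data.

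The members, the 26 programme and 8 marker lists and the rules were chosen with earlier results of these data known. Genes named were the called genes of largest log2 fold change (up to 12 a direction, with mean log2 CPM not under 1, same sign at both days, no overlap within a day, without clone names; filled to 8 by smallest p), up to 3 genes of smallest p and equal sign per programme list, the gate genes with Col1a1, Col1a2, Pdgfra and Pdgfrb, and 5 genes of smallest interaction p. Adam12 came in through its list. 6820408C15Rik and Spp1 were named after their values were seen, and 1 gene that rose is not reported here by name or value. Symbols were matched to GENCODE M21 (98.4%) for positions.

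Settings tried were DESeq2 1.42.0, voom in limma 3.58.1 with sample weights, RLE factors, total counts, no filter, 1 CPM in 5 libraries, the mean of both days, a replicate block, a GC offset, covariates for olfactory background and Y-linked counts, testing against a 1.5-fold change, and leaving out libraries. Covariates for haematopoietic and epithelial markers were chosen after seeing the data. Figures were drawn with matplotlib 3.10.9.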

Additional observations from a re-analysis of the deposited data

Results flagged for a closer look

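Of 40 groups of levels examined for a library standing apart from the rest (Dixon's ratio at 95%, which chance passes in about 1 in 20), 2 held one. Calca in the 5 sham libraries was highest in sham day 14 replicate 1, at 1.01 CPM or 3 reads, with the others at 0.141 to 0.244 CPM. Mpp6 in the 6 PNX libraries was highest in PNX day 7 replicate 3, at 114 CPM, with the others at 34.9 to 50.7 CPM; the Mpp6 call held without that library.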

How the results depend on the processing

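No reported gene changed direction under any setting, and 369 of 486 values of the 18 genes under other settings kept the call; Cthrc1 kept it in 27 of 27, Colq and 6820408C15Rik in 26. Among 68 other genes, taken by the fill-in and list rules and not all named here, 1767 of 1836 values stayed on their side of the threshold. The other 69 moved past it. The gate genes, the interaction genes and Spp1 were not among the 68. Against 12 genes higher and 6 lower as reported, DESeq2 gave 113 and 180, limma voom 37 and 109, no filter on low counts 21 and 11, the mean of both days in a fit of 4 groups 22 higher, the background covariate 40 and 17, the test against a fold of 1.5 gave 4 and 2, and the haematopoietic covariate, chosen after seeing the data, 23 higher. Leaving out the 3 libraries of highest background gave 42 lower; like leaving out either day 14 sham library, it leaves 1 sham library at day 14, assumed to vary like the others. The replicate number as a block gave 5 higher and 0 lower with edgeR (501 and 651 at an unadjusted p under 0.05; no other tool was run with the block), and 12 and 2 with the GC offset added. With the block 13 of the 18, all 6 that fell among them, were not past the threshold (adjusted p 0.0547 to 0.295), and with the GC offset added 7 were not (0.0525 to 0.303); Calca, Cthrc1, Dmkn, Anxa8 and 6820408C15Rik passed in both. The numbers were not taken to pair the libraries, since same-numbered sham and PNX libraries deviated together with correlations of -0.12, 0.53 and 0.34 at day 7 and 0.10 and 0.18 at day 14, and not every library correlated best with its own number. Leaving out 1 library at a time gave 1 to 35 higher and 1 to 119 lower genes. With the larger p of both days as the test of a gene, 0 genes were past the threshold as reported and 2 without the filter. Leaving out 1 library at a time, outside the day 14 sham group, gave 0 to 1. For the interaction the count was 0 as reported, 1 with total counts, 8 without the filter, 3 without the 3 libraries, 102 with DESeq2, 1 with limma voom, and 0 to 370 leaving out 1 library. The cause of these differences was not tested. With RLE factors and total counts the median over all genes shifted by -0.014 and 0.014 (log2). At the reported depth Calca in sham, with 1 to 3 reads a library, is near the limit of detection.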

Other observations

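Some genes outside the programmes above had groups that did not overlap, without passing the threshold. Plod2, which encodes an enzyme that hydroxylates lysines of collagen, ranged from 57.1 to 72.2 CPM in sham and from 96.7 to 144 CPM in PNX (log2 fold change 0.86 ± 0.22, adjusted p = 0.141 by edgeR), at 0.98 for day 7 and 0.70 for day 14. Ankrd37, a gene of the hypoxia list, ranged from 0.672 to 1.45 CPM in sham and from 1.73 to 5.61 CPM in PNX (1.46 ± 0.60, adjusted p = 0.416). Over all genes, 102 had 6 PNX libraries above the 5 sham libraries (0.637%).

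Wnt4, a Wnt ligand gene of the epithelial niche list, had almost the same log2 fold change at both days (1.61 and 1.56), with 4.64 to 18.5 CPM in sham and 10.2 to 60.7 CPM in PNX, so its groups overlapped (adjusted p = 0.141). Igf1, a growth factor gene, had 0.77 and 1.27, with 229 to 682 CPM in sham and 573 to 1560 CPM in PNX (adjusted p = 0.326). Rsad2, an interferon-induced gene, had 1.40 and 1.87, with 7.39 to 16.8 CPM in sham and 9.51 to 70.9 CPM in PNX (adjusted p = 0.141), while the 25 tested interferon response genes as a list had medians of opposite sign, 0.69 at day 7 and -0.38 at day 14. Lipofibroblast genes were split, with 2 of 10 higher and 2 lower at both days, against 21.7% and 24.8% of all genes tested.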
